A study of Mus musculus with 6 samples.

Results

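The red cell miRNA list holds 8 entries of the 1926 in the authors' miRNA table: miR-451a, miR-144-3p, miR-144-5p, miR-486a-5p/miR-486b-5p, miR-16-5p, miR-15b-5p, miR-185-5p and miR-363-3p. They were taken by name, and miR-486a-5p/miR-486b-5p is 1 entry because the authors counted its copies together. MicroRNAs (miRNAs) are short RNAs that lower the translation of the messenger RNAs they pair with. They were sequenced from extracellular vesicles, membrane-bound particles released by cells, that had been isolated from mouse brain. The 3 SE libraries came from mice after status epilepticus, a prolonged seizure, and the 3 CON libraries from matched control mice, with a time of 24 hr in the series title. Strain, genotype, sex, age and the agent that induced the seizure are not given in the sources used here. Whether each replicate is its own animal is not stated in the labels. The p-values therefore speak of the variation among these 6 libraries alone, and that variation could be technical.

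Red blood cells lose their nucleus but keep a set of miRNAs made by their precursors. miR-451a and miR-144 come from neighbouring hairpins that the erythroid factor GATA1 switches on, and miR-451a is unusual in being cut by Argonaute 2 and not by Dicer. miR-486 is made in the red cell and muscle lineages. miR-16-5p, miR-15b-5p and miR-185-5p are abundant in red cells too but are made by most tissues, brain included, and miR-363-3p belongs to a cluster on the X chromosome related to the miR-17-92 cluster. Some of these miRNAs are used to recognise blood in plasma and tissue preparations.

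The sequences below show which entries could be told apart by their letters and which share a seed, the stretch that chooses targets. They are mature miRNAs from RefSeq (GRCm38.p6), with the seed, bases 2 to 8, in capitals. Of the 9 names in the list, 6 matched that table; miR-486a-5p, miR-486b-5p and miR-185-5p did not. The first group holds the erythroid pair, with miR-101a-3p for comparison.
miR-451a: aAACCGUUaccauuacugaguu
miR-144-5p: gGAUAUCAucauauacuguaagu
miR-144-3p: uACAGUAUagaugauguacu
miR-101a-3p: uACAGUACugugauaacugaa
The next group shares the seed of miR-16-5p.
miR-16-5p: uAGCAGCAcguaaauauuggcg
miR-15b-5p: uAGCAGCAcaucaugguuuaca
miR-15a-5p: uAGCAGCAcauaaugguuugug
miR-195a-5p: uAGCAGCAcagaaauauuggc
miR-497a-5p: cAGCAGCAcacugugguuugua
The last group shares the seed of miR-363-3p.
miR-363-3p: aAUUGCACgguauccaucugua
miR-25-3p: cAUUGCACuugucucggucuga
miR-92b-3p: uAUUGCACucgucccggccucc
miR-16-5p and miR-15b-5p are the same over their first 9 bases, and miR-144-3p shares bases 2 to 7 but not the whole seed with miR-101a-3p. Among entries with a sequence in that table, no other one carries the seed of miR-451a, of miR-144-3p or of miR-144-5p.

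In GRCm38, Mir144 lies at chr11:78073005-78073070 and Mir451a at chr11:78073170-78073241, both on the plus strand, 99 bases apart and in no annotated host gene. Mir15b, at chr3:69009772-69009835, and Mir16-2, at chr3:69009902-69009996, lie 66 bases apart in an intron of Smc4. miR-16-5p has a further copy, Mir16-1, at chr14:61631880-61631972, which overlaps an exon of the non-coding Dleu2. Mir185, at chr16:18327401-18327465, is in an intron of Tango2, and Mir363, at chrX:52741693-52741767, has no annotated host. The build named for the deposited files is mm9, so these positions describe the loci and were not used for counting.

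The libraries held 6016533 to 10845434 miRNA reads in the SE group and 5482407 to 6504884 in the CON group. Values are RPM, the reads of a miRNA scaled to 1000000 miRNA reads per library. In the deposited table the rows of the CON columns were not under their own miRNA names. They were put back with the base means of the authors' fold-change table, which matched all 687 CON rows above 0. CON values below are those put back. Directions follow the SE and CON labels of the columns, and nothing measured here tests those labels. Neuronal miRNAs such as miR-124-3p and miR-9-5p summed over 5 entries to 39375 to 43465 RPM in SE libraries and 40302 to 44411 RPM in CON libraries. The largest of them was miR-7a-5p, at 21118 ± 3226 RPM with SE, against 18637 ± 1259 RPM with CON (SD, n = 3 each). Means of miR-7a-5p, miR-124-3p and miR-138-5p were higher in SE libraries and those of miR-9-5p and miR-128-3p lower, with overlapping ranges for each. The astrocyte list holds miR-29a-3p and miR-143-3p, and whether they stand for astrocytes here was not tested. This pair summed to 7908 to 8788 RPM in SE libraries and 9141 to 13019 RPM in CON libraries. Of that pair miR-29a-3p had separate SE and CON ranges, as 14.8% of all tested miRNAs did, and miR-143-3p did not. Oligodendrocyte markers summed to 253 to 332 RPM in SE libraries and 310 to 452 RPM in CON libraries. miR-338-3p carried most of this sum, at 256 ± 39.0 RPM with SE, against 363 ± 82.7 RPM with CON (SD, n = 3 each). miR-219a-2-3p was at 41.5 ± 2.75 RPM with SE, against 41.1 ± 13.4 RPM with CON (SD, n = 3 each). The SE and CON ranges of both overlapped. Of the oligodendrocyte markers, miR-219a-5p was at or near 0, at up to 0.598 RPM.

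The entries most specific for red cells were at or near 0. miR-451a had 0 reads in each of the 3 SE libraries. In CON libraries it had 0 reads in replicates 1 and 2 and 6 reads in replicate 3. Those 6 reads equal 0.922 RPM, with an exact Poisson 95% interval of 0.338 to 2.01 RPM. Here and below, intervals and floors cover counting error only. For a count of 0 a floor of 3 reads was set, which is 0.277, 0.499 and 0.448 RPM in SE replicates 1, 2 and 3. In CON replicates 1 and 2 the floor is 0.536 and 0.547 RPM. The exact Poisson 95% interval of a 0 count reaches further, to 3.69 reads. The lowest value above 0 in each column stood for 2 reads, so a listed 0 may also hide a single read. miR-451a was thus seen in 1 of 6 libraries, at rank 531 of the 573 miRNAs detected there.

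miR-144-3p and miR-144-5p, the arms of the hairpin beside miR-451a, had 0 reads in all 6 libraries. The same was true of miR-363-3p. None of these 3 entries is in the authors' deposited fold-change table, and their CON rows stayed at 0 when names were put back. With the floors of 0.277 to 0.547 RPM per library, their presence below that level was not detectable at this depth. The miR-363-3p seed was still present in the vesicles through its relatives: the seed summed to 53.5 to 60.7 RPM per library, from 4 entries above 0, of which miR-25-3p, miR-92b-3p and miR-92a-3p carried most.

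Of all 1926 listed miRNAs, 573 to 616 were above 0 per library, so entries at 0 were common. Of the 8 entries of the list, 3 were undetected, 1 more was seen in a single library, and what remained was mainly miR-16-5p and miR-185-5p. These last 2 made up 99.4% ± 0.115 of the list's RPM with SE, against 99.4% ± 0.0770 with CON (SD, n = 3 each). The whole list took 0.944% ± 0.0478 of the miRNA reads with SE, against 1.10% ± 0.0644 with CON (SD, n = 3 each).

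**Figure D1:**
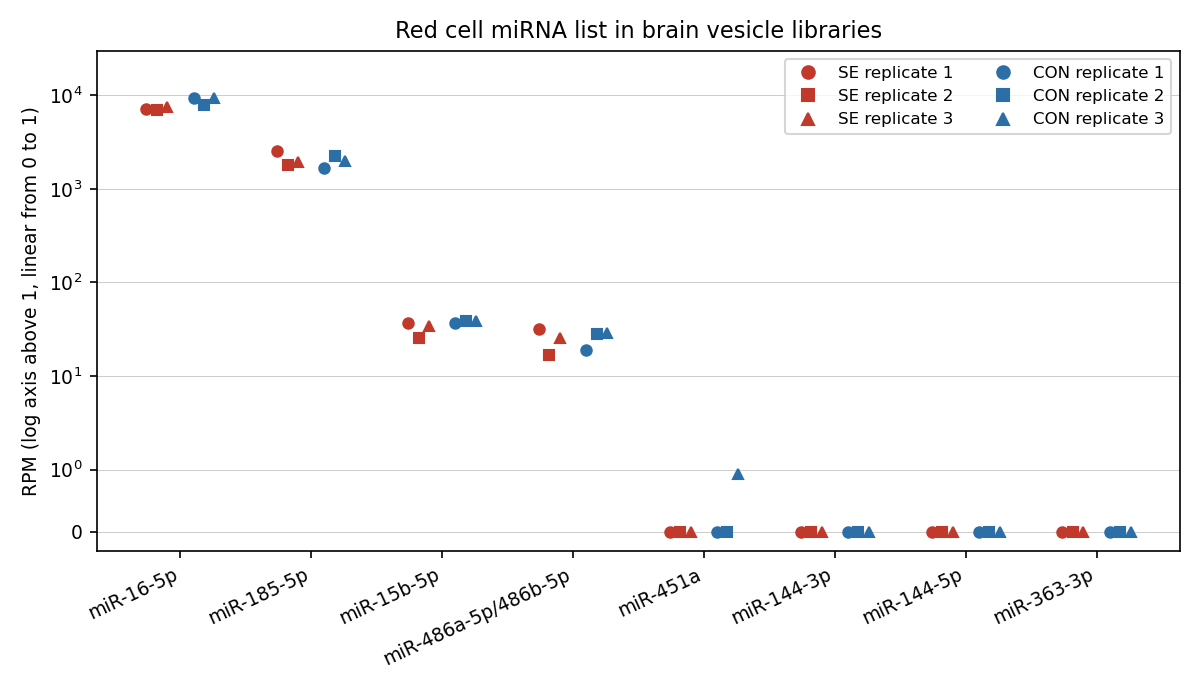
RPM of the 8 entries in each library, on an axis that is logarithmic above 1 RPM and linear from 0 to 1; SE libraries are red, CON libraries blue, and marker shapes give the replicate. miR-16-5p lies between 7052 and 9478 RPM, while miR-451a is above 0 in CON replicate 3 alone and the last 3 entries are at 0 throughout.

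Of the red cell marker list, which also holds miR-451a and both miR-144 arms, miR-486a-5p/miR-486b-5p was the entry found in every library. It is made in muscle too. It stood at 32.2, 16.8 and 25.4 RPM in SE replicates 1, 2 and 3, from 349, 101 and 170 reads. In CON replicates 1, 2 and 3 it stood at 19.1, 28.5 and 28.6 RPM, from 107, 156 and 186 reads. SE replicate 1 was the highest and SE replicate 2 the lowest of all 6, so the SE libraries spanned the CON libraries. Their exact Poisson 95% intervals, 28.9 to 35.7 RPM and 13.7 to 20.4 RPM, did not overlap. SE replicate 1 was also the deepest library, at 10845434 reads, and the part of depth in its value was not tested. Of 6 muscle entries, chosen after values were seen, 4 were above 0. miR-1a-3p was at 152 ± 5.53 RPM with SE, against 201 ± 23.99 RPM with CON, and miR-206-3p at 60.5 ± 3.12 RPM with SE, against 75.3 ± 19.1 RPM with CON (SD, n = 3 each). Both lay above miR-486a-5p/miR-486b-5p in every library, while miR-133a-3p/133b-3p reached 2.92 RPM and miR-499-5p 2.09 RPM, and miR-208a-3p and miR-208b-3p were at 0. The part of muscle in the miR-486a-5p/miR-486b-5p level was not tested.

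Set against miR-451a in the same library, miR-486a-5p/miR-486b-5p had many times more reads. With miR-451a set at the floor of 3 reads per library, the ratio was 116-fold, 33.7-fold and 56.7-fold in SE replicates 1, 2 and 3. Such floor ratios leave out the counting error of the other miRNA, so they are not strict lower limits. At the same floor the ratio was 35.7-fold and 52.0-fold in CON replicates 1 and 2. It was 31-fold in CON replicate 3, where miR-451a was counted, with an exact 95% counting interval of 13.98 to 85.6. A usual index of red cell lysis in plasma sets miR-451a against miR-23a-3p, which red cells hold little of. Here miR-23a-3p/23b-3p, counted as 1 entry, exceeded miR-451a at that floor by 1187-fold to 2173-fold in SE libraries. In CON libraries the floor ratio was 1310-fold and 880-fold in replicates 1 and 2. The counted ratio was 518-fold in replicate 3, with an exact 95% counting interval of 238 to 1413. Whether the scale of the plasma index holds for brain vesicles, with miR-23b-3p counted in, was not tested.

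All 5 leukocyte and platelet entries were above 0 in every library, and they summed to 97.3 to 121 RPM in SE libraries and 184 to 216 RPM in CON libraries. Of these, only miR-155-5p had separate SE and CON ranges. It is made by activated macrophages and lymphocytes, and it was lower in SE libraries. It was at 28.2, 26.3 and 21.4 RPM in SE libraries and at 99.4, 111 and 105 RPM in CON libraries, with a log2 fold change of -2.02 (standard error 0.21) and a limma adjusted p of 4.36e-06. The part of blood cells in any list entry was not tested. Myeloid miR-223-3p was at 6.24 ± 2.35 RPM with SE, against 6.76 ± 4.16 RPM with CON (SD, n = 3 each). Lymphoid miR-150-5p was at 34.5 ± 3.78 RPM with SE, against 35.95 ± 9.09 RPM with CON (SD, n = 3 each). miR-142a-3p was at 9.68 ± 4.41 RPM with SE, against 10.3 ± 5.34 RPM with CON (SD, n = 3 each). Its partner miR-142a-5p was at 35.2 ± 5.19 RPM with SE, against 43.7 ± 8.96 RPM with CON (SD, n = 3 each). Endothelial miR-126a-3p and miR-126a-5p summed to 4355 to 5240 RPM in SE libraries and 4817 to 6715 RPM in CON libraries. The liver markers, led by miR-122-5p, summed to 105 to 126 RPM in SE libraries and 166 to 255 RPM in CON libraries, and miR-122-5p had a limma adjusted p of 0.0504. Separate SE and CON ranges, the case for 14.8% of all tested miRNAs, held for miR-122-5p but not for miR-192-5p or miR-194-5p.

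**Figure D2:**
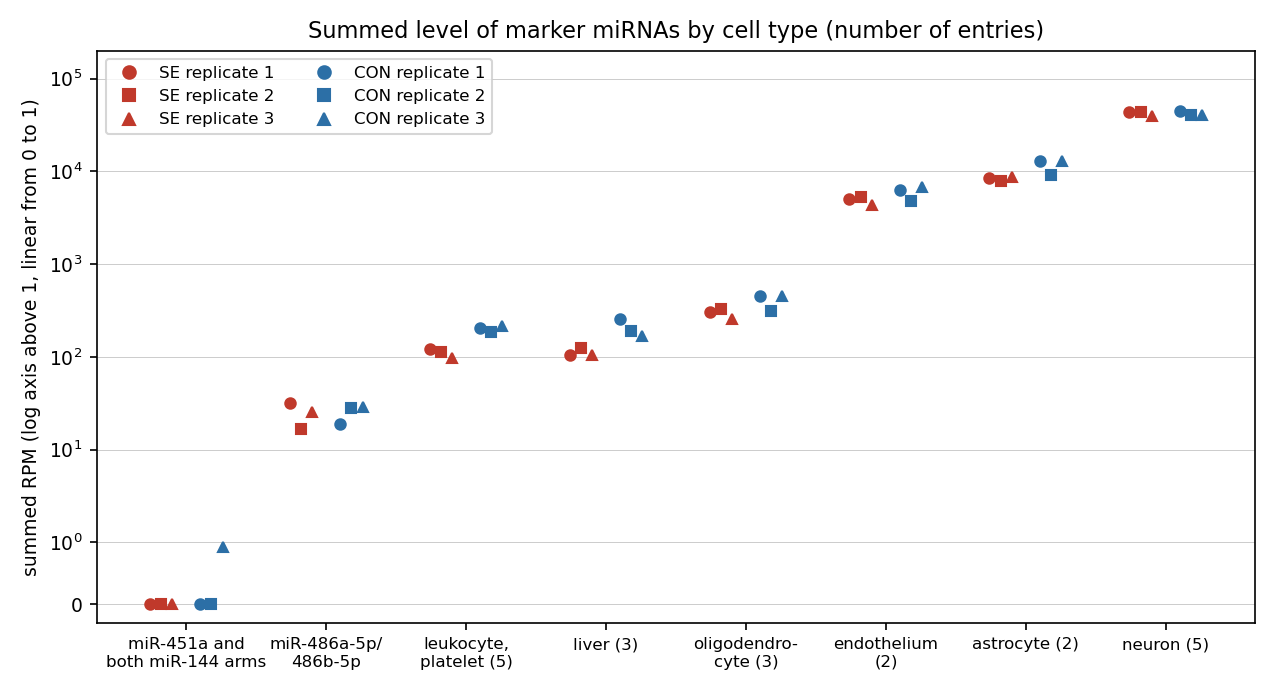
Summed RPM of marker miRNAs by cell type in each library, on an axis logarithmic above 1 RPM and linear from 0 to 1; SE libraries are red and CON libraries blue, with the replicate as marker shape and the number of entries in brackets. miR-451a with the miR-144 arms is at 0 in 5 libraries and 0.922 RPM in CON replicate 3, below every other set.

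miR-16-5p was the most abundant entry, at rank 14 to 16 among the detected miRNAs of each library. It restrains cell cycle genes and the survival factor BCL2. It stood at 7228, 7052 and 7583 RPM in SE replicates 1, 2 and 3, from 42426 to 78388 reads. The CON replicates 1, 2 and 3 held 9478, 7954 and 9450 RPM, from 43609 to 61471 reads. All 3 SE values lay below all 3 CON values. Over the 290 tested miRNAs, 43 had separate SE and CON ranges, a share of 14.8%, and 39 of them, or 13.4%, were lower in SE libraries. Less of a miRNA per vesicle and fewer vesicles that carry it cannot be told apart in such libraries.

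limma-trend on log2(RPM + 1) put the SE over CON log2 fold change of miR-16-5p at -0.29 (standard error 0.13), with a 95% interval of -0.57 to -0.020. The unadjusted p was 0.0367, and 27 of the 290 tested miRNAs, or 9.31%, were under 0.05, 22 of them (7.59%) lower in SE libraries. The adjusted p was 0.486, so the difference did not pass. The separation depended on the scaling. With reads divided by the size factors behind the authors' table, the SE libraries ran from 44199 to 56698 and the CON libraries from 53108 to 59499, and they overlapped. Quantile normalization gave a log2 fold change of -0.025, and median-of-ratios scaling -0.19.

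miR-15b-5p, made from the same transcript as one copy of miR-16-5p, was far less abundant. It stood at 36.7, 25.4 and 34.1 RPM in SE replicates 1, 2 and 3, from 398, 153 and 228 reads. In CON replicates 1, 2 and 3 it stood at 36.8, 38.7 and 38.3 RPM, from 206, 212 and 249 reads. The groups did not overlap, but the gap between SE replicate 1 and CON replicate 1 was 0.128 RPM, less than the 0.179 RPM that 1 read was worth in that CON library. On reads divided by size factors the groups overlapped. limma gave a log2 fold change of -0.25 (standard error 0.23) and an adjusted p of 0.829.

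miR-185-5p, which acts on small GTPases and cell cycle genes, was the second most abundant entry, at rank 31 to 38. It stood at 2557, 1824 and 1919 RPM in SE replicates 1, 2 and 3. Its CON values in replicates 1, 2 and 3 were 1668, 2260 and 2004 RPM. As for miR-486a-5p/miR-486b-5p, SE replicate 1 was the highest library, and the groups overlapped. limma gave a log2 fold change of 0.082 (standard error 0.18) and an adjusted p of 0.912. The sign turned without SE replicate 1, at -0.068, and without CON replicate 1, at -0.035.

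For miR-486a-5p/miR-486b-5p, limma gave a log2 fold change of -0.057 (standard error 0.27), with a 95% interval of -0.63 to 0.52 and an adjusted p of 0.966. Its sign was the other way with median-of-ratios scaling, at 0.042, without SE replicate 2, at 0.19, and without CON replicate 2 or 3, at 0.033 and 0.037. Differences inside that interval could not be resolved with 3 libraries per group.

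Over the list, 4 of the 8 entries reached the mean of 10 RPM needed for the test, and 0 of the 4 passed at an adjusted p under 0.05. Over all tested miRNAs 3 passed, a share of 1.03%. The log2 fold change was below 0 for 3 of the 4 entries and above 0 for 1, with a median of -0.15, and over all 290 tested miRNAs the median was -0.072. Median-of-ratios scaling moved the median of all tested miRNAs to 0.028. The 4 entries kept 1 order of RPM in all 6 libraries: miR-16-5p, then miR-185-5p, miR-15b-5p and miR-486a-5p/miR-486b-5p. The lower neighbours were close, and across libraries the range of miR-15b-5p, 25.4 to 38.7 RPM, overlapped that of miR-486a-5p/miR-486b-5p, 16.8 to 32.2 RPM.

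**Figure D3:**
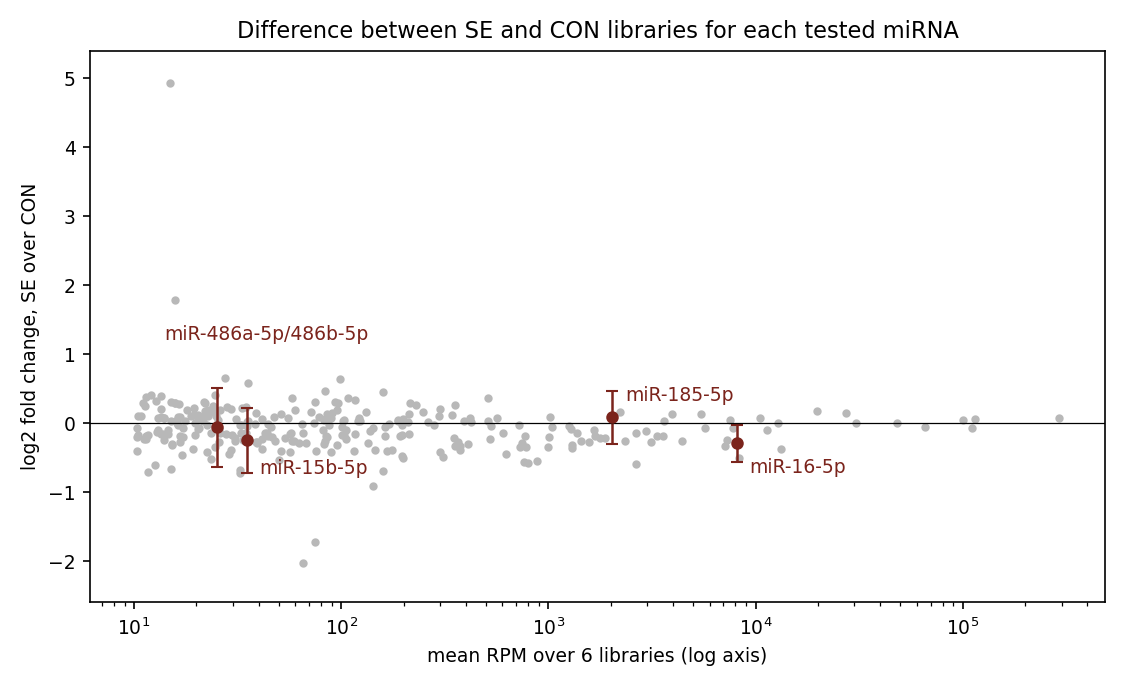
Log2 fold change, SE over CON, against mean RPM over 6 libraries (log axis) for the 290 tested miRNAs; the 4 tested entries of the list are dark red with 95% intervals from limma, and the others are grey. The intervals of miR-185-5p, miR-15b-5p and miR-486a-5p/miR-486b-5p include 0, and that of miR-16-5p runs from -0.57 to -0.020 before adjustment.

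The authors' deposited table was set beside these values. Its positive values stand for a higher level in CON libraries, since all 219 miRNAs with a base mean of at least 150 had the sign of CON over SE computed from the recovered reads. In the authors' deposited table miR-16-5p had a log2 fold change of 0.18 (standard error 0.12), miR-15b-5p 0.14 (0.22), miR-185-5p -0.17 (0.18) and miR-486a-5p/miR-486b-5p -0.05 (0.35). For miR-486a-5p/miR-486b-5p that is higher in SE libraries, against -0.057, SE over CON, with limma, so the directions differed. Both of these values were smaller than their standard errors. The directions of miR-16-5p, miR-15b-5p and miR-185-5p were the same as with limma. miR-451a had 3.56 (3.96) in the authors' deposited table, from a base mean of 0.968 normalized reads. None of these 5 passed there, with adjusted p of 0.975 to 0.983, and 8 of its 772 tested miRNAs, or 1.04%, did. These values are not independent of the RPM, which come from the same libraries.

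Ratios within a library do not depend on the scaling between libraries, and they set the other entries against miR-16-5p. miR-15b-5p had 5.08, 3.61 and 4.49 reads per 1000 reads of miR-16-5p in SE replicates 1, 2 and 3. In CON replicates 1, 2 and 3 it had 3.89, 4.86 and 4.05. The groups overlapped, and the mean log2 ratio differed by 0.035, SE minus CON, with the sign turned without SE replicate 1, at -0.077, and without CON replicate 1, at -0.029.

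miR-486a-5p/miR-486b-5p had 4.45, 2.38 and 3.35 reads per 1000 reads of miR-16-5p in SE replicates 1, 2 and 3. In CON replicates 1, 2 and 3 it had 2.02, 3.58 and 3.03, again with overlap, and the mean log2 ratio differed by 0.23, or -0.0013 without CON replicate 1. The ratio of the red cell and muscle miRNA to the widely made one was thus highest in SE replicate 1 and lowest in CON replicate 1.

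miR-185-5p had 354, 259 and 253 reads per 1000 reads of miR-16-5p in SE replicates 1, 2 and 3. Its CON values in replicates 1, 2 and 3 were 176, 284 and 212. CON replicate 2 lay inside the SE range, and the mean log2 ratio differed by 0.38. In exact two-sided permutation tests over 20 splits, the differences had p = 0.9 for miR-15b-5p, 0.6 for miR-486a-5p/miR-486b-5p and 0.3 for miR-185-5p. Adjusted over the 3 ratios each had 0.9, and 3 libraries against 3 cannot give a p below 0.1.

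**Figure D4:**
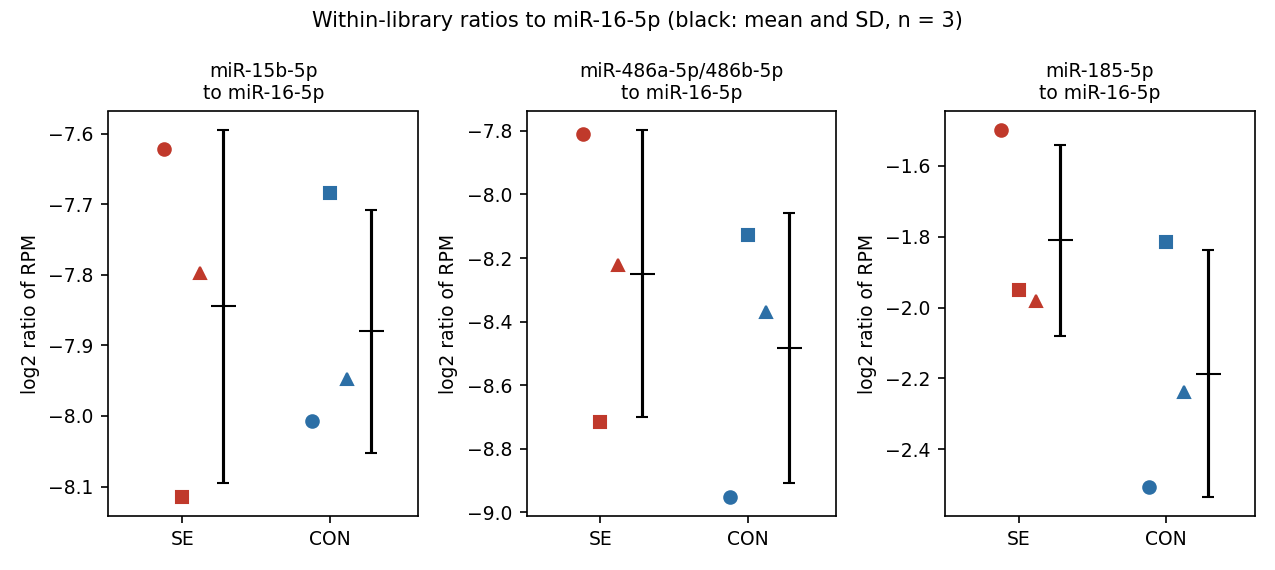
Log2 ratio of RPM to miR-16-5p for 3 entries in each library, SE on the left and CON on the right, with the replicate as marker shape and the mean and SD (n = 3) in black. The groups overlap in each panel, and the miR-185-5p means are -1.81 in SE and -2.19 in CON libraries.

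For the 4 entries found in every library, most reads came from the named arm. miR-185-5p had 86296 reads over the 6 libraries and its partner miR-185-3p 93. miR-15b-5p had 1446 reads and miR-15b-3p 26, and miR-486a-5p/miR-486b-5p had 1069 reads and its partner entry 66. By library, the partner entry held 9.11%, 0% and 7.10% of the reads of that pair in SE replicates 1, 2 and 3. The CON replicates 1, 2 and 3 gave it 4.46%, 0% and 6.53%. miR-16-5p had 329645 reads, while both of its partner arms, miR-16-1-3p and miR-16-2-3p, were at 0 in every library. None of the 6 partner arm entries reached 10 RPM, so none was tested.

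miR-16-5p carried nearly all of its seed. It made up 95.7% to 96.8% of the reads with that seed per library, and miR-15b-5p 0.347% to 0.486%. Of 10 entries with the seed, 6 were above 0. Next after miR-16-5p came miR-497a-5p, at 124 ± 18.7 RPM with SE, against 121 ± 16.7 RPM with CON (SD, n = 3 each). miR-195a-5p, from the same cluster, stood at 88.3 ± 1.13 RPM with SE, against 85.3 ± 11.2 RPM with CON (SD, n = 3 each). miR-15a-5p, made beside Mir16-1, stood at 27.1 ± 1.74 RPM with SE, against 34.1 ± 12.3 RPM with CON (SD, n = 3 each). Among all 15 cluster and seed relatives, 12 were above 0, 7 were tested and 0 passed, with 3 log2 fold changes above 0 and 4 below. The same counts over all 290 tested miRNAs were 3 passed, or 1.03%, with 117 log2 fold changes above 0 and 173 below. Of the cluster mates of miR-363-3p, miR-18b-5p was at 0 throughout, and miR-106a-5p reached 1.09 RPM and miR-20b-5p 5.65 RPM. miR-19b-3p reached 2.15 RPM and miR-92a-3p lay between 7.66 and 12.4 RPM, but both also have a copy on chromosome 14, and reads of the copies cannot be told apart.

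A further list holds other miRNAs that red cells and their precursors carry. Of its 16 entries, 15 were above 0 and 10 were tested; 0 passed, 9 had a log2 fold change below 0 and 1 above, and the median was -0.23. Over all 290 tested miRNAs, 173 were below 0 and 117 above, and the median was -0.072. Separate SE and CON ranges, found for 14.8% of all tested miRNAs, occurred for 2 of the 10, miR-93-5p and miR-140-3p. miR-93-5p, of the miR-106b-25 cluster, stood at 1112, 1104 and 1251 RPM in SE libraries and 1557, 1260 and 1507 RPM in CON libraries, with a log2 fold change of -0.31 (standard error 0.17) and a limma adjusted p of 0.641. miR-140-3p stood at 44.0 ± 1.16 RPM with SE, against 58.8 ± 6.29 RPM with CON (SD, n = 3 each), with a limma adjusted p of 0.608. The red cell maturation miRNA miR-96-5p was at 0 in all 6 libraries, and its cluster partners miR-182-5p and miR-183-5p reached 9.12 and 2.86 RPM.

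Profiles over the 6 libraries were compared by the root mean square difference of log2(RPM + 1) values centred per miRNA, among 289 other tested miRNAs. The 3 nearest to miR-16-5p were miR-93-5p (0.0359), miR-30a-3p (0.0367) and miR-532-5p (0.0700). miR-30a-3p stood at 1420, 1407 and 1434 RPM in SE libraries and 1827, 1570 and 1753 RPM in CON libraries, with CON replicate 2 the lowest of its group as for miR-16-5p. The 3 nearest to miR-486a-5p/miR-486b-5p were miR-30d-5p (0.12), miR-31-5p (0.134) and miR-26a-5p (0.143). miR-30d-5p stood at 1577, 1003 and 1174 RPM in SE libraries and 1058, 1440 and 1337 RPM in CON libraries, so SE replicate 1 was again the highest and SE replicate 2 the lowest. Of these 6, miR-93-5p is in the further list of red cell miRNAs and the other 5 are in none of the lists used here. They share libraries and scaling with the entries they resemble.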

How the data were processed

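The QIAseq miRNA kit was used for library preparation, per the labels' protocols. The submitters' processing notes name the build mm9 and, as a tool, DESeq2; aligner, counter and any use of molecular identifiers are not given in the sources used here. The authors' deposited RPM values give reads scaled to 1000000 miRNA reads. With the lowest value in each column taken as 2 reads, every value was a whole number of reads within 0.01, which gave the depths. The authors' deposited fold-change table gives, per the file headers, base means (a signal of size-factor normalized reads), log2 fold changes, the Wald statistic as a score, and raw and adjusted p-values, all copied and not refitted.

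CON rows were put back under their names. A base mean averages 6 libraries, so taking the SE part away leaves each miRNA's CON total; all 687 totals above 0 had a matching CON row (relative tolerance 1e-05, largest difference 1.64e-09), and no miRNA had candidate rows with unequal reads. With the CON size factors exchanged, at most 3 of 312 totals of at least 150 matched.

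Group differences in log2(RPM + 1) were tested two-sided by limma-trend in limma 3.58.1 under R 4.3.3, for the 290 miRNAs whose mean over libraries reached 10 RPM, adjusted by Benjamini-Hochberg over all of them; it was tested on simulated data. Ratios had exact permutation tests. Alternatives covered pseudocount, filter, scaling, limma settings, replicate block, names as deposited and each library left out; limma-voom, the muscle miRNAs and the size-factor overlap were added after the data were examined. Other software was matplotlib 3.10.9, scipy 1.17.1, pandas 2.3.3 and numpy 2.4.6 under Python 3.11.15. Every entry of the list is named; beside it stand partner arms, relatives, other red cell miRNAs, cell type markers and the 3 nearest profiles. Members and lists were chosen with earlier results of these data known.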

Additional observations from a re-analysis of the deposited data

How the results depend on the processing

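The count of 3 calls among all tested miRNAs was 0 with CON values left as the deposited table names them, where 2 of 289 miRNAs had an unadjusted p under 0.05 by limma, and ran from 3 to 6 when 1 library was left out: it was 6 without CON replicate 2 and 5 without CON replicate 3. None of the 4 tested entries passed under any alternative run, and the 50 RPM filter left out miR-15b-5p and miR-486a-5p/miR-486b-5p, and the adjusted p of miR-16-5p ran from 0.151 to 0.9997. For miR-16-5p and miR-15b-5p the log2 fold change stayed below 0 under each alternative, at -0.38 to -0.25 and -0.35 to -0.10 with a library left out. For miR-486a-5p/miR-486b-5p it turned to 0.042 with median-of-ratios scaling and ran from -0.26 to 0.19 with a library left out, above 0 without SE replicate 2, at 0.19, CON replicate 2, at 0.033, and CON replicate 3, at 0.037. For miR-185-5p it ran from -0.068 to 0.18, at -0.068 without SE replicate 1 and -0.035 without CON replicate 1. The log2 ratios to miR-16-5p ran from -0.077 to 0.17 for miR-15b-5p (-0.077 without SE replicate 1, -0.029 without CON replicate 1), from -0.0013 to 0.47 for miR-486a-5p/miR-486b-5p (-0.0013 without CON replicate 1) and from 0.22 to 0.56 for miR-185-5p; causes were not tested. Same-numbered SE and CON replicates share a number, and the labels do not say whether they were prepared together. Their deviations correlated at -0.42, -0.25 and 0.04, and SE replicate 1 correlated best with CON replicate 2. With 3 libraries per group these correlations cannot show whether the replicates were paired. With the replicate block the count of calls was 3 and the ratios had p = 1, 0.75 and 0.5 in exact sign-flip permutation tests, in the order given above. With 3 pairs, that test cannot give a p below 0.05. The 3 planned count models were not run: the deposited values are RPM, and reads recovered from them rest on taking the lowest value as 2 reads. limma-voom on those reads, added after the data were examined, gave 3 calls. Depth limits what a count of 0 can show, and other reasons for a 0 were not tested.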

Other observations

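As the deposited table names its CON values, miR-451a would be listed at 0 in all 6 libraries, and the 6 reads in CON replicate 3 appear only once names are put back. The base mean of miR-451a in the authors' deposited table, 0.968, is above 0 although its deposited RPM row is 0 throughout. The deposited row of miR-16-5p holds 8811, 8005 and 7309 RPM in the CON columns, so that it would overlap the SE libraries, at 7228, 7052 and 7583 RPM. The deposited row of miR-15b-5p holds 46.5, 34.3 and 25.5 RPM in the CON columns and overlaps the SE libraries too.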
